A study of Mus musculus with 9 samples.

Results

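The 10 genes described here are those of MHC class I antigen presentation listed under the symbols *H2-D1*, *H2-K1*, *H2-Q4*, *H2-Q6*, *H2-T23*, *B2m*, *Tap1*, *Tap2*, *Psmb8* and *Psmb9*. They are 10 of the 33274 symbols found in at least 1 of the 9 files, and all 10 are listed in every file, as are 12580 symbols in all. The genes were picked because *H2-T23* and *H2-Q6* differed between endothelial cells of invasive and angiogenic tumors, so that this difference is described below without a test. The study implanted patient-derived glioblastoma (GBM) organoids into the brains of athymic nude mice, and the resulting PDOXs (patient-derived orthotopic xenografts) hold human tumor cells within a tumor microenvironment (TME) of mouse cells. The mouse cells were profiled by Drop-seq, which counts unique molecular identifiers (UMIs) from the 3′ ends of transcripts. Nude mice lack a functional thymus and therefore most T cells, the cells that read MHC class I.

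Each group was defined by tumor and treatment. Each of the 7 untreated PDOXs was represented by 1 library, Nu-NB was the brain of a nude mouse without tumor, and P3TMZ was a P3 PDOX from a mouse given temozolomide (TMZ), an alkylating drug. P8, T101, T192 and T233 are set here as invasive and P3, T16 and P13 as angiogenic, from the study's text and not from the sample labels, and the study's text elsewhere calls the growth of P3 intermediate. T192 and T233 are a longitudinal pair from the same patient. FACS was used to isolate the mouse cells of Nu-NB and of P8, and magnetic (MACS) depletion for the 6 remaining untreated PDOXs. Older gene symbols appear in the same 2 FACS files, so that sort and symbol release cannot be told apart. With 1 library per tumor, p-values between groups of libraries measure the spread between PDOXs, with T192 and T233 entered separately. Between classes, where library is a block, they measure the spread left within libraries.

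MHC class I molecules display peptides from inside the cell to CD8 T cells and to receptors of NK cells. A heavy chain, encoded by the H2 genes, pairs with the light chain β2-microglobulin (*B2m*). *H2-D1* and *H2-K1* are classical heavy chains, while *H2-Q4*, *H2-Q6* and *H2-T23* (Qa-1) are nonclassical. Peptides are cut by the proteasome, whose immunoproteasome form carries the subunits of *Psmb8* and *Psmb9* in place of those of *Psmb5* and *Psmb6*, and are carried into the endoplasmic reticulum by the transporter made of *Tap1* and *Tap2*. Interferons raise the transcription of these genes, through IRF and STAT factors and the activator *Nlrc5*, and in the normal brain their levels are known to be low outside the vasculature and microglia.

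Of the 10 genes, 9 lie on mouse chromosome 17 (GRCm38) and *B2m* on chromosome 2, at chr2:122147687-122153082. *Psmb9* (chr17:34182030-34187330), *Tap1* (chr17:34187556-34197225), *Psmb8* (chr17:34198195-34201454) and *Tap2* (chr17:34204479-34216321) are neighbors there, with *H2-K1* at chr17:33996012-34000619, *H2-D1* at chr17:35263094-35267497, *H2-Q4* at chr17:35379617-35384674, *H2-Q6* at chr17:35424850-35430055 and *H2-T23* at chr17:36029977-36032701. The heavy chain genes are close copies of each other, so that reads of their 3′ ends may be split between them or lost. The H2 haplotype of the mice is not given in the sources used here, and reads were assigned on the reference genome. Heavy chain levels are therefore uncertain between paralogs. The 200 bases before the RefSeq start of *B2m* and of the 5 heavy chain genes are shown because they are the windows that hold an IRF core. Sequences are from RefSeq (GRCm38.p6), 5′ to 3′ on the strand of the gene, with capitals for an IRF core (AANNGAAA) or a κB motif (GGGNN followed by TTNCC) on either strand:
H2-D1: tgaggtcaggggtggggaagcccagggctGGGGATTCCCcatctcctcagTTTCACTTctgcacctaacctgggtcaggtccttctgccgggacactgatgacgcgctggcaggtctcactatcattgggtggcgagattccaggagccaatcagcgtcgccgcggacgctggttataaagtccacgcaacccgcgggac
H2-K1: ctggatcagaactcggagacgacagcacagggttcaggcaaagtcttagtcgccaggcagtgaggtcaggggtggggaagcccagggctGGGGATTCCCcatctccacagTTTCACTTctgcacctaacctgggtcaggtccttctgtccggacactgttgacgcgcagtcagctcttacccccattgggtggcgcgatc
H2-Q4: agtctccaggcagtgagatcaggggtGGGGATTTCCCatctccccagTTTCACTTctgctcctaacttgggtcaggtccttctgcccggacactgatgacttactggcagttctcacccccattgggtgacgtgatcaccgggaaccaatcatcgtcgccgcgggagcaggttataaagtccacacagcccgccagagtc
H2-Q6: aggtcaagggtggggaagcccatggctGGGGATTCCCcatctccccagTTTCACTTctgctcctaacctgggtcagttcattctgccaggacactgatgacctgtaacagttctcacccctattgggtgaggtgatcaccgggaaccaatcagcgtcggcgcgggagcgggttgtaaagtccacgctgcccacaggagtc
H2-T23: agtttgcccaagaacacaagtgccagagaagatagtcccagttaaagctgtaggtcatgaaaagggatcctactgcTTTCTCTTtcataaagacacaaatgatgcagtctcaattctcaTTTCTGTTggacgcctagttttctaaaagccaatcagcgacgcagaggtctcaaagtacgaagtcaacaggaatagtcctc
B2m: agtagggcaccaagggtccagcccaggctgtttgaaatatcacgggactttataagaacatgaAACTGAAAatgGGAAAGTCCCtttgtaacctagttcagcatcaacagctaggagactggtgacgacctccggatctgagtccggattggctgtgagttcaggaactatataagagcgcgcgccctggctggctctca

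These windows are chr17:35262894-35263093 (+) for *H2-D1*, chr17:34000348-34000547 (−) for *H2-K1*, chr17:35379417-35379616 (+) for *H2-Q4*, chr17:35424650-35424849 (+) for *H2-Q6*, chr17:36032702-36032901 (−) for *H2-T23* and chr2:122147487-122147686 (+) for *B2m*. The start used for *H2-K1* lies inside its annotated gene. A window was held for 9 of the 10 genes. The IRF core was found in 6 of them against 17.2% of 27025 mouse promoter windows of the same length. The κB letters were found in 5, all shown here but *H2-T23*, against 3.3% of promoters. In *H2-Q4* a pair of κB matches overlap. *H2-T23* instead held 2 IRF matches, starting 124 and 81 bases before its start. The CCAAT box (CCAAT) was found in 7 windows, against 30% of promoters. *Tap1* and *Psmb8* held none of the 3 motifs and *Psmb9* only CCAAT. The motifs were chosen after the sequences had been seen, and a match is a match of letters only. The windows are not independent, as the heavy chain genes are close copies and those of *Tap1* and *Psmb9* overlap on opposite strands. The counts are therefore not read against the shares of promoters.

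The files held 1294068 to 8410580 UMIs per PDOX and 1519323 for Nu-NB. After filtering, 14622 cells remained, and at most 5 barcodes were shared by any pair of libraries. Cells were clustered without the 10 genes, and clusters were named from marker genes, with the ending "-like". The 5 classes used are myeloid-like, endothelial-like, mural (pericyte)-like, oligodendrocyte progenitor (OPC)-like and astrocyte-like cells. Summed myeloid markers ran from 33406 to 46478 CPM in myeloid-like cells, and summed endothelial markers from 11035 to 22647 CPM in endothelial-like cells. Levels are given in CPM, the UMIs of a gene scaled to the UMI total in the usual way, both summed over the cells of a class in a library with at least 10 such cells. Clusters with markers of more than 1 class (7.85% of cells) or without a name (17.4%) were left out. Among the latter, a cluster led by *Igkc*, *Mrc1*, *Ly6c2* and *Ccr2* held 2.99% of Nu-NB cells and between 0.324% (T233) and 10.5% (T101) of PDOX cells.

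T101 stood apart from the other PDOXs in the genes described here. It was the highest untreated PDOX for 10 of 10 genes in myeloid-like, 7 in endothelial-like, 6 in mural-like and 9 each in OPC-like and astrocyte-like cells. The share of all genes that were highest in T101 was not computed. The summed level of the 10 genes in its myeloid-like cells was 25064 CPM, against 8509 to 16861 CPM in the other 6. In endothelial-like cells T101 had 17253 CPM, beside 14622 CPM in P8 and 13596 CPM in T233. Its astrocyte-like cells had 8176 CPM, against 621 to 3283 CPM in the other PDOXs, and its OPC-like cells had 13344 CPM. A fixed list of 25 interferon-stimulated genes was also highest in T101 in each class, with a summed 9546 CPM in myeloid-like and 8038 CPM in astrocyte-like cells. MHC class II genes summed to 31510 CPM in its myeloid-like cells, with 12532 CPM in P8 as the next highest. Summed lymphocyte markers were 611 CPM in its myeloid-like cells and 8.18 to 300 CPM in those of the other untreated PDOXs. Clusters without a name held 57% of the cells of T101, against 8.52 to 30.1% in the other untreated PDOXs. The part of either in its levels was not tested. Class means that move with T101 are given with and without it.

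**Figure D1:**
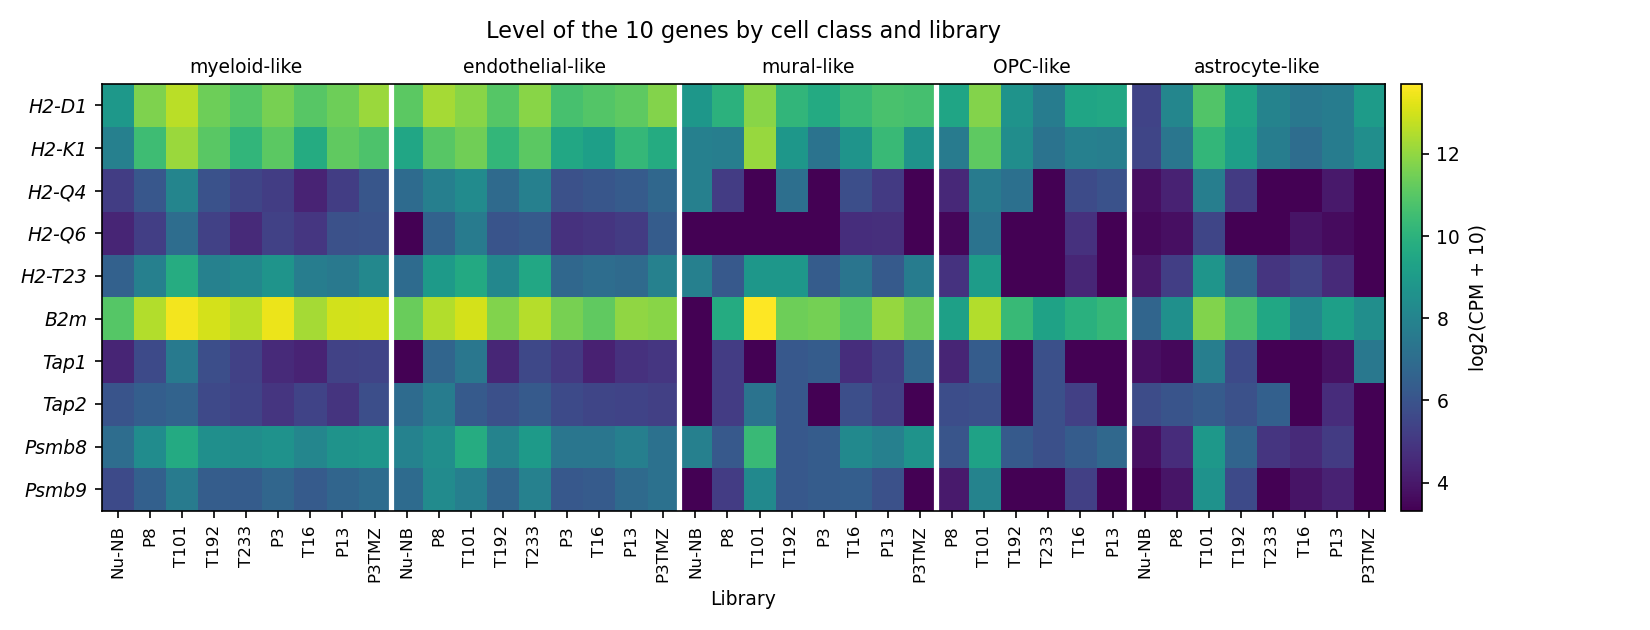
Levels of the 10 genes as log2(CPM + 10), by class of cell and library; each column is a library with at least 10 cells of the class, and brighter color is higher. *H2-D1* and *B2m* are brightest in myeloid-like and endothelial-like cells in most libraries, with *B2m* of the 15 mural-like cells of T101 (*B2m* level 13269 CPM) as the highest value, Nu-NB is low in myeloid-like and astrocyte-like cells, and T101 is the highest PDOX in most classes.

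The first question was which cell types of the TME transcribed these genes. *H2-D1*, *H2-K1*, *B2m* and *Psmb8* had the same order of mean levels over the untreated PDOXs, from myeloid-like through endothelial-like, mural-like and OPC-like to astrocyte-like cells. Without T101 this order held for *B2m* and *Psmb8*, while *H2-D1* was higher in endothelial-like (2760 CPM) than in myeloid-like cells (2635 CPM) and *H2-K1* higher in astrocyte-like (247 CPM) than in OPC-like cells (218 CPM). *H2-Q4*, *H2-Q6*, *H2-T23*, *Tap1*, *Tap2* and *Psmb9* had their highest mean in endothelial-like cells. Without T101 this held for all of them but *Tap1*, which was at 40.7 CPM in mural-like and 32.3 CPM in endothelial-like cells. Library was a block in these tests, since the classes of 1 library come from the same tumor.

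Among the heavy chains, *H2-D1* had a mean of 3164 ± 1483 CPM (SD, n = 7) in myeloid-like and 2887 ± 1261 CPM (SD, n = 7) in endothelial-like cells. Mural-like cells followed with 1595 CPM, OPC-like cells with 1026 CPM and astrocyte-like cells with 572 ± 672 CPM (SD, n = 6). Of the neighbors in this order, only endothelial-like and mural-like cells differed past the threshold (edgeR quasi-likelihood test with Benjamini-Hochberg adjustment, FDR = 0.00332), and without T101 mural-like and OPC-like cells did so too (*H2-D1* log2FC 1.23, FDR = 0.0175, edgeR). Without T101 *H2-D1* was at 1184 CPM in mural-like, 535 CPM in OPC-like and 308 CPM in astrocyte-like cells. *H2-K1* had 2043, 1520, 1147, 551 and 401 CPM in the same order of classes, and 1643, 1309, 502, 218 and 247 CPM without T101. *H2-T23* was at 371 CPM in endothelial-like and 337 CPM in myeloid-like cells, and at 206, 100 and 92.4 CPM in mural-like, astrocyte-like and OPC-like cells. Without T101 its levels were 303, 250, 160, 37.7 and 6.0 CPM in the same order, so that the *H2-T23* mean of OPC-like cells rested on that library. *H2-Q4* was at 147 CPM in endothelial-like cells and at 37.0 to 71.4 CPM in the other classes (120 and 8.27 to 47.6 CPM without T101). *H2-Q6*, with 65.3 CPM in endothelial-like and 41.8 CPM in myeloid-like cells (45.1 and 28.8 CPM without T101), did not pass the filter on low counts.

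The light chain *B2m* was at 7998 ± 2523 CPM (SD, n = 7) in myeloid-like cells, with T16 lowest at 5018 CPM and T101 highest at 11801 CPM. It was at 4672 ± 2085 CPM (SD, n = 7) in endothelial-like, 4344 CPM in mural-like, 1738 CPM in OPC-like and 1165 ± 1194 CPM (SD, n = 6) in astrocyte-like cells. Without T101 *B2m* was at 7364, 4073, 2558, 922 and 725 CPM in the same order. Myeloid-like and endothelial-like cells differed past the threshold, also without any 1 of the PDOXs. Endothelial-like and mural-like cells did so in all PDOXs (*B2m* FDR = 0.0457, edgeR), but not without P8, T192, T233 or P3 (*B2m* FDR of 0.0719 to 0.329). Mural-like and OPC-like cells did so (*B2m* FDR = 0.00953, edgeR), but not without P13 (*B2m* FDR = 0.0992). The transporter genes were low everywhere, with means of 21.9 to 50.9 CPM for *Tap1* and 28.4 to 69.4 CPM for *Tap2* (9.12 to 40.7 and 24.5 to 69.9 CPM without T101). Of the immunoproteasome subunits, *Psmb8* had 404 CPM in myeloid-like and 349 CPM in endothelial-like cells against 102 CPM in astrocyte-like cells, and *Psmb9* had 155 CPM in endothelial-like and 45.8 to 96.5 CPM in the other classes. Without T101 *Psmb8* was at 338, 267 and 32.8 CPM in these 3 classes, and *Psmb9* at 146 CPM in endothelial-like and 7.27 to 80.7 CPM in the other classes.

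Astrocyte-like and OPC-like cells were lower than endothelial-like and myeloid-like cells in most of the genes. Against astrocyte-like cells, 9 of the 9 genes tested were higher in endothelial-like cells (7 without T101), where 34.4% of all genes were called higher. *H2-D1* had a log2 fold change (log2FC) of 2.76 (SE 0.37, FDR = 2.82e-08, edgeR) and *B2m* 2.33 (SE 0.36, FDR = 3.98e-07, edgeR). In myeloid-like cells 8 of 9 were higher than in astrocyte-like cells (7 without T101), against 35.3% of all genes, with *B2m* at 3.45 (SE 0.37, FDR = 9.37e-11, edgeR) and *H2-D1* at 3.16 (SE 0.38, FDR = 1.12e-09, edgeR). *Tap2* was the exception. Against OPC-like cells, 9 of 9 genes were higher in endothelial-like (22.9% of all genes; 8 without T101, 5 without library as a block) and 8 of 9 in myeloid-like cells (29.2%; 6 without T101). Between OPC-like and astrocyte-like cells 0 of 9 genes differed by edgeR or DESeq2 and 0 had an unadjusted p under 0.05, where 30.2% of all genes were called.

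Of the 9 genes, 4 were higher in endothelial-like than in mural-like cells (*H2-D1*, *H2-K1*, *H2-Q4* and *B2m*; 13.3% of all genes; 5 without T101, 2 without P8, 1 with at least 500 detected genes per cell and 1 without library as a block), with log2FC of 1.33 for *H2-D1* (SE 0.36) and 1.68 for *H2-Q4* (SE 0.48). In myeloid-like cells 5 were higher than in mural-like cells (22.5% of all genes; 3 with at least 500 detected genes or at least 20 cells). Mural-like cells were higher than OPC-like cells for 3 genes (17% of all genes) and than astrocyte-like cells for 4 (22.8% of all genes), and without T101 both counts were 6. The first count was 1 without P8 or T16 and 0 without P13, the second was 1 without P13, and both were 0 without library as a block. T101 had only 15 mural-like cells. Summed myeloid markers were 437 to 10437 CPM in the mural-like cells of the untreated PDOXs and 218.8 CPM in those of Nu-NB, and their part in the mural-like levels was not tested.

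Endothelial-like and myeloid-like cells, the classes with most class I transcripts, differed in 3 of 9 genes (0 without library as a block), where 52.6% of all genes differed. *H2-Q4* was higher in endothelial-like cells (log2FC 0.99, SE 0.31, FDR = 0.00592, edgeR), and *B2m* (log2FC -1.12, SE 0.32, FDR = 0.00277, edgeR) and *Psmb8* (log2FC -0.75, SE 0.28, FDR = 0.0210, edgeR) were lower. Without T192, P3, T16 or P13 *Psmb8* did not pass (FDR of 0.0572 to 0.0822, edgeR). For *H2-T23* and *Tap1* the mean CPM was higher in endothelial-like cells but the fitted log2FC was -0.37 and -0.48, past no threshold. Of all genes, 28% were called lower in endothelial-like cells and 24.6% higher. Of 7 genes of peptide loading and trimming that were tested, 5 were lower in endothelial-like cells and 0 higher (median log2FC -0.77, beside -0.04 over all genes), among them the loading chaperone tapasin (*Tapbp*, log2FC -1.19, SE 0.23) and the chaperone calreticulin (*Calr*, log2FC -1.20). All 5 tested MHC class II genes were lower, with *H2-DMa*, which loads class II peptides, at -4.87. Of 11 regulators, 5 were lower and 1 higher, and the interferon factor *Irf8*, a myeloid lineage gene, was at -4.76. Of 4 other heavy chains 1 was higher and 1 lower, as were 1 and 1 of 4 other genes of the immunoproteasome and its activator. Of 24 interferon-stimulated genes, 14 were higher in endothelial-like cells and 5 lower (median log2FC 0.81), with the GTPase *Gbp4* at 3.27 and *Gbp3* at 2.96.

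Against astrocyte-like cells, endothelial-like cells were higher in 21 of 24 interferon-stimulated genes and lower in 1 (median log2FC 2.18, beside 0.24 over all genes), with *Gbp4* at 4.98 and *Ifitm3*, a restriction factor of virus entry, at 2.89. All 4 tested genes of the immunoproteasome and its activator were higher, with the activator subunit *Psme1* at 1.65, while of the constitutive subunits *Psmb6* was higher (0.68) and *Psmb5* (0.60) and *Psmb7* (0.36) were not past the threshold. Tapasin was higher as well (*Tapbp*, 1.10), but not past the threshold without P13 (0.77, FDR = 0.0774, edgeR). Myeloid-like cells were higher than astrocyte-like cells in *Irf8* (4.45), *Psme2* (2.36), *Tapbp* (2.29) and the class II chaperone *Cd74* (4.93). Each of these log2FC passed FDR ≤ 0.05 by edgeR unless stated.

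Across the 32 sums of a class in an untreated PDOX, *H2-D1*, *H2-K1* and *B2m* moved together, with a Pearson r of log2(CPM + 10) of 0.91 between *H2-D1* and *H2-K1* and 0.93 between *H2-D1* and *B2m*. *Psmb8* had r = 0.93 with *H2-D1*. *Tap2* was the least alike, with r of 0.30 to 0.58 to the other 9. Among 3632 other genes, *Parp14*, an interferon-induced ADP-ribosyltransferase, was nearest to *H2-D1* (r = 0.86), *H2-K1* (r = 0.89), *H2-T23* (r = 0.86) and *Psmb8* (r = 0.84). After it came *Ly6e* and *Psme1* for *H2-D1*, *Gbp9* and *AW112010* for *H2-K1*, *Irf1* and *Parp9* for *H2-T23*, and *Phf11d* and *Gbp9* for *Psmb8*. *B2m* was most like *Pabpc1*, *Ifi44* and *Arpc1b*, *H2-Q6* like *Igtp* (r = 0.77), *AW112010* and *Slco2b1*, and *Tap1* like *Ski* (r = 0.66), *Isg15* and *Ifi44*. Sums of 1 library share its preparation and depth, and these values carry no test.

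**Figure D2:**
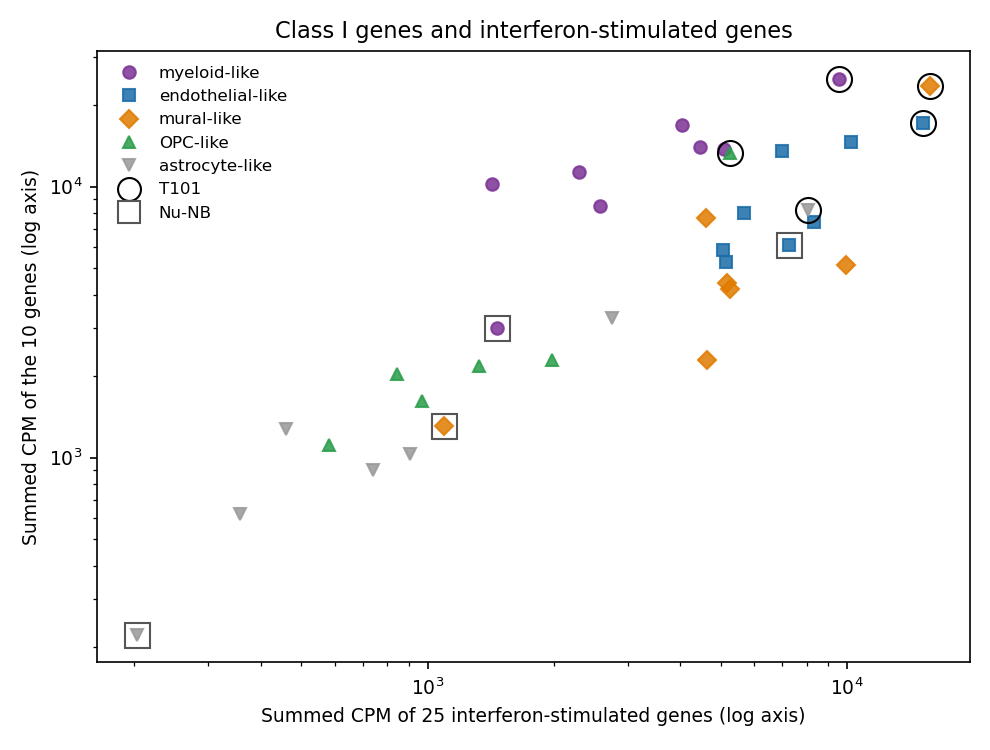
Summed CPM of the 10 genes (vertical axis) against summed CPM of 25 interferon-stimulated genes (horizontal axis), each point a class in a library, with T101 circled and Nu-NB squared; both axes are logarithmic. T101 is highest on both axes within each class, with 25064 CPM for the 10 genes in myeloid-like cells, and Nu-NB myeloid-like cells sit at 3003 CPM.

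The second question was how TME cells of PDOXs compare with those of the brain without tumor. In myeloid-like cells, class I genes were low in Nu-NB and higher in the PDOXs. *H2-D1* was at 458 CPM in Nu-NB, at 3309, 6339, 2706 and 1961 CPM in P8, T101, T192 and T233, and, among the angiogenic PDOXs, at 3061 CPM in P3, 2061 CPM in T16 and 2710 CPM in P13. *B2m* was at 1979 CPM in Nu-NB, at 5777, 11801, 8359 and 6354 CPM in the invasive and at 10661, 5018 and 8017 CPM in the angiogenic PDOXs. Every PDOX lay above Nu-NB in both genes, with the median PDOX at 5.91-fold for *H2-D1* and 4.05-fold for *B2m*. *H2-K1* had 218 CPM in Nu-NB and PDOX levels of 822 to 4442 CPM (9.58-fold at the median), and *Psmb8* had 121 CPM and 262 to 800 CPM (2.88-fold). *H2-T23* had 83.6 CPM in Nu-NB, with the PDOXs at 173 to 857 CPM (2.72-fold). In all, 7 of 10 genes were higher in every PDOX than in Nu-NB, where 15.2% of all genes were. The 3 others were *H2-Q4*, *Tap1* and *Tap2*, of which *Tap2* was at 53.9 CPM in Nu-NB and higher in only 2 of 7 PDOXs.

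None of these differences passed the thresholds of FDR ≤ 0.01 and an absolute log2FC of at least 1 by edgeR, which called 0 of the 10 genes and 0.0222% of all genes. Of the 10, 6 had an unadjusted p under 0.05 (21.3% of all genes), and DESeq2 called 3 (*H2-D1*, *H2-K1* and *B2m*; 2.85% of all genes). The fitted log2FC was 3.10 for *H2-D1* (SE 0.75, FDR = 0.0584, edgeR), 3.54 for *H2-K1* (SE 0.93, FDR = 0.0675, edgeR), 2.33 for *B2m* (SE 0.67, FDR = 0.0793, edgeR) and 2.04 for *Psmb8* (SE 0.65, FDR = 0.105, edgeR), and -0.07 for *Tap2*. The median over the 10 genes was 2.17, beside 0.07 over all genes. The spread of brains was taken to be that of PDOXs, as there was 1 brain. On simulated data of this comparison, edgeR recovered 40.9% of genes changed 8-fold. Without T101, *H2-D1* had a log2FC of 2.89 (FDR = 0.0451, edgeR).

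Myeloid-like cells of the groups came from different clusters. In Nu-NB 99.2% lay in the cluster led by *P2ry12*, *Gpr34* and *Tmem119*, genes of resting microglia, which held 66.4% of the class in T16, 69.9% in P13 and 5.38 to 17.4% in the other untreated PDOXs, where clusters led by *Lpl*, *Spp1* and *Cst7* held most cells. Within the *P2ry12*-led cluster, *H2-D1* had 457 CPM in Nu-NB, with the PDOXs at 1567 to 5106 CPM (2254 ± 1268, SD, n = 7). *B2m* was at 1944 CPM and 3764 to 11307 CPM, and *H2-K1* at 215 CPM and 690 to 3699 CPM. All 7 PDOXs lay above Nu-NB within this cluster in these 3 genes and in *H2-T23* and *Psmb8*. T101, T233 and P3 had only 27, 27 and 23 cells in it. The share of all genes above Nu-NB in every PDOX was not computed within this cluster, so no baseline stands beside these genes. P8, from the same sort and symbol release as Nu-NB, had 1682 CPM of *H2-D1*, and the part of sort and symbol release was not tested. The 2 others of the 7 genes higher in every PDOX over the class were not so within the cluster. *Psmb9* was at 40.8 CPM in Nu-NB and at 0 of 14041 UMIs in P3, which allows up to 214 CPM. *H2-Q6* was at 10.9 CPM in Nu-NB, at 8.97 CPM in T16 and at 0 UMIs in P3 and T233. In the *Mrc1*-led cluster without a name, *H2-D1* was at 1776 CPM in Nu-NB and 1597 to 6351 CPM in the 5 PDOXs with at least 10 such cells, so that Nu-NB lay inside the range.

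**Figure D3:**
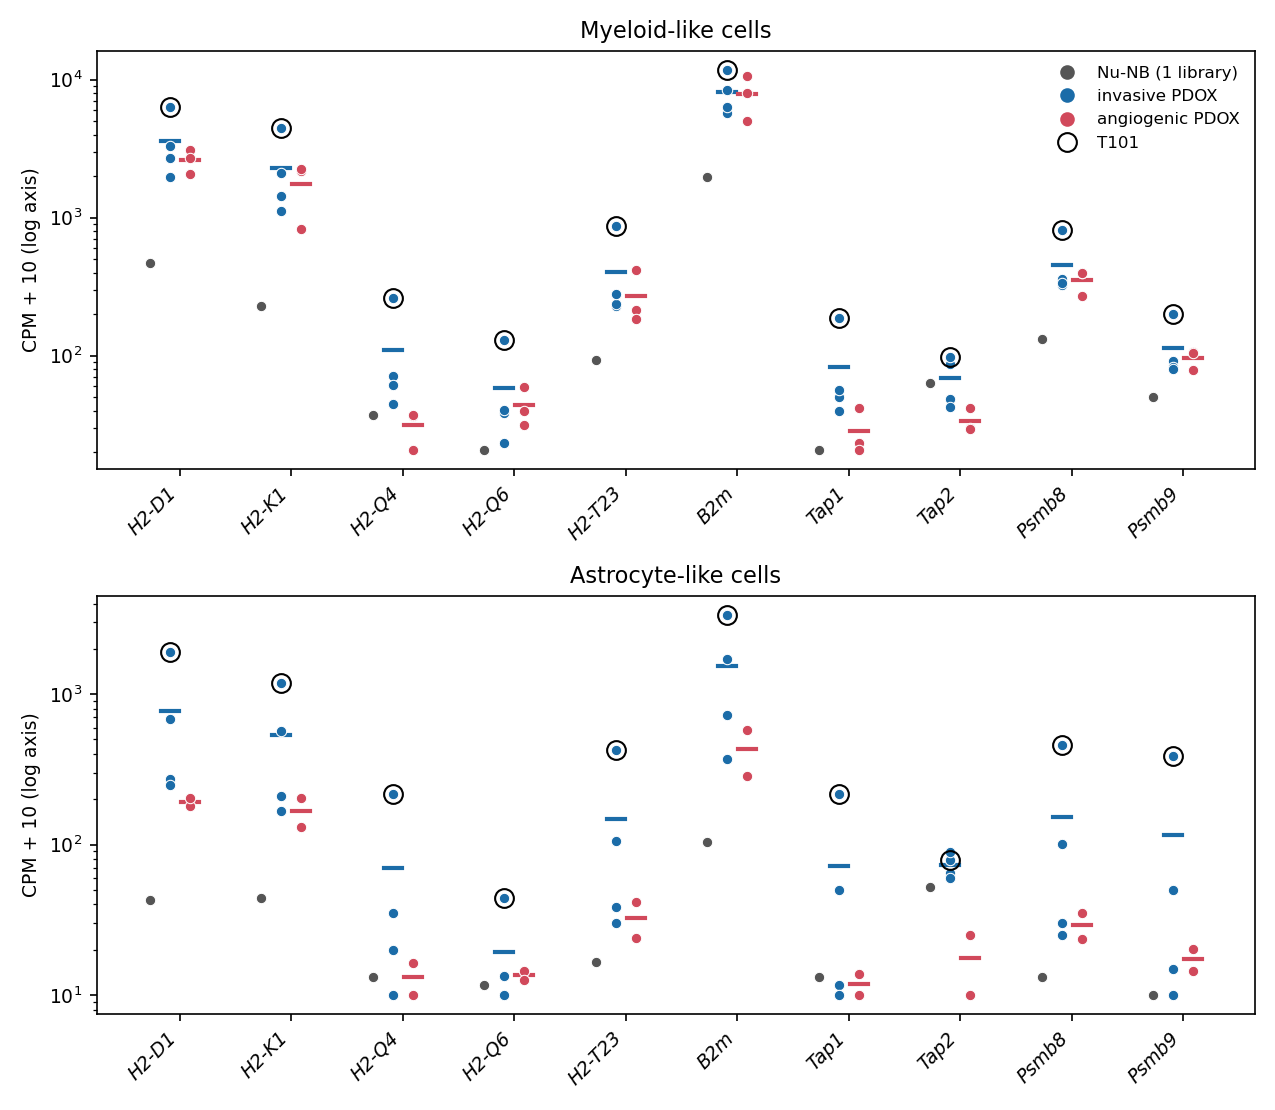
CPM + 10 on a logarithmic axis for the 10 genes in myeloid-like and astrocyte-like cells; points are libraries of Nu-NB, invasive and angiogenic PDOXs, T101 is ringed, and bars are group means. *H2-D1*, *H2-K1* and *B2m* of Nu-NB lie below every PDOX in both classes, with *H2-D1* at 458 CPM against at least 1961 CPM in myeloid-like and at 32.7 CPM against at least 170 CPM in astrocyte-like cells.

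In astrocyte-like cells, *H2-D1* was at 32.7 CPM in Nu-NB, at 261, 1889, 678 and 239 CPM in P8, T101, T192 and T233, and at 170 and 194 CPM in T16 and P13, while P3 had too few cells. *B2m* was at 94.8 CPM in Nu-NB, at 361, 3367, 1702 and 718 CPM in the invasive and at 277 and 565 CPM in the angiogenic PDOXs. All 6 PDOXs were above Nu-NB in these and in *H2-K1*, *H2-T23* and *Psmb8*, that is in 5 of 10 genes, where 13.7% of all genes were. The count was 2 with classes set cell by cell and 3 with at least 500 detected genes. The median PDOX was at 7.65-fold for *H2-D1*, 6.77-fold for *B2m*, 5.75-fold for *H2-K1* and 4.55-fold for *H2-T23*. Of the 9 genes tested, 0 were called by edgeR (1 without T192, 3 with no filter on low counts) or DESeq2, beside 0% of all genes by edgeR, and 6 had an unadjusted p under 0.05 (11.8% of all genes). *H2-D1* had a log2FC of 3.74 (SE 1.09, FDR = 0.334, edgeR). Summed myeloid markers in the astrocyte-like cells were 654 CPM in Nu-NB, 771 CPM in P8 and 1036 to 5989 CPM in the other PDOXs, highest in T192, and their part in these levels was not tested. P8, the PDOX nearest to Nu-NB in these markers, had *H2-D1* at 261 CPM beside 32.7 CPM, but this is 1 library beside 1 and does not decide their part.

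Endothelial-like cells of Nu-NB already held class I transcripts. From 35 cells and 17353 UMIs, *H2-D1* was at 2132 CPM, inside the PDOX range of 1650 to 5057 CPM, and *B2m* was at 2593 CPM against 2301 to 8268 CPM. *H2-K1* was at 692 CPM, with 6 of 7 PDOXs above it. Higher in every PDOX were 2 of 10 genes, *H2-Q6* and *Tap1*, where 30.2% of all genes were, and 4 were without T16. Both had 0 of 17353 UMIs in Nu-NB, which allows up to 173 CPM, above their PDOX medians of 55.1 and 22.6 CPM, so that a difference was not detectable at this depth. By edgeR and by DESeq2 0 of 10 were called, beside 0% of all genes by edgeR, and 2 had an unadjusted p under 0.05 (13.7% of all genes). The fitted log2FC, scaled by TMM, was above the ratio of CPM, at 1.35 for *H2-D1* (SE 0.68, FDR = 0.392, edgeR), 1.78 for *B2m* (SE 0.77, FDR = 0.352, edgeR) and 2.06 for *H2-K1* (SE 0.92, FDR = 0.359, edgeR), beside a median of 0.66 over all genes. On simulated data of this comparison edgeR recovered 4.5% of genes changed 8-fold. In the 11 mural-like cells of Nu-NB *B2m* had 0 of 4570 UMIs, so that the median PDOX was at least 4.32-fold higher at a floor of 3 counts. Of 4 genes tested in mural-like cells, 0 were called by edgeR or DESeq2 (0% of all genes by edgeR; 1 had an unadjusted p under 0.05, as did 13.8% of all genes).

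The third question was how the levels vary between invasive and angiogenic PDOXs. In endothelial-like cells, where the genes were picked, *H2-T23* was at 489, 778, 268 and 730 CPM in P8, T101, T192 and T233 and at 99.5, 122 and 109 CPM in P3, T16 and P13. *H2-Q6* was at 85.7, 187, 55.1 and 66.3 CPM in the invasive and 18.1, 20.2 and 24.9 CPM in the angiogenic PDOXs. The groups did not overlap in either gene. *H2-Q4*, which was at 214, 308, 110 and 218 CPM in the invasive and 49.7, 59.2 and 69.5 CPM in the angiogenic PDOXs, did not overlap either. As a description of the values that chose the genes, the fitted log2FC of angiogenic against invasive PDOXs was -2.36 for *H2-T23* and -2.15 for *H2-Q6*, followed by -1.78 for *H2-Q4*, and outside these came *Psmb8* at -1.44 and *H2-K1* at -1.32. In Nu-NB *H2-T23* and *H2-Q4* rested on 2 UMIs each.

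Of the other genes, the 6 tested had smaller fitted differences of the same sign. *H2-D1* was at 3594 ± 1252 CPM (SD, n = 4) in the invasive and 1944 ± 295 CPM (SD, n = 3) in the angiogenic PDOXs. *H2-K1* had means of 2042 ± 672 and 824 ± 318 CPM, and *B2m* of 5847 ± 1975 and 3105 ± 866 CPM. T192 overlapped with the angiogenic PDOXs in these 3 genes, with 1996 CPM of *H2-D1* and 3432 CPM of *B2m*. *Psmb8* was at 240 to 838 CPM in the invasive and 157 to 212 CPM in the angiogenic PDOXs. *Tap1* did not pass the filter on low counts, which 9 of 10 genes did. It was at 11.8 to 163 CPM in the invasive (mean 76.7 CPM, 48.0 CPM without T101) and 9.42 to 22.6 CPM in the angiogenic PDOXs (mean 16.6 CPM), so that the groups overlapped. In all, 5 genes were lower in every angiogenic than in every invasive PDOX (*H2-Q4*, *H2-Q6*, *H2-T23*, *Tap2* and *Psmb8*), beside 6.45% of all genes, and edgeR called 0.974% of all genes in this contrast. The genes were picked from these values, so their count is not read against either share. Without T192 all 10 genes were separated in this way, without P13 9 were, and with at least 500 detected genes 3 were. Without T101 *H2-T23* was at 495 ± 231 CPM (SD, n = 3) and *H2-Q6* at 69.0 ± 15.5 CPM (SD, n = 3) in the invasive PDOXs.

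**Figure D4:**
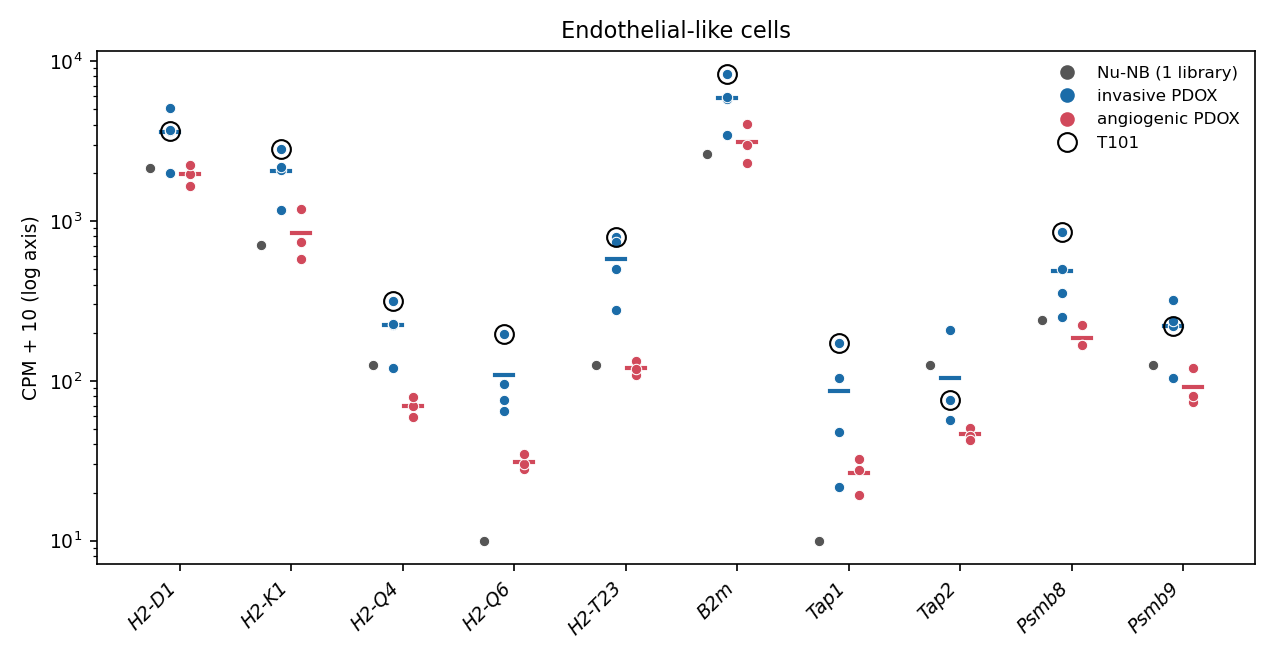
CPM + 10 on a logarithmic axis for the 10 genes in endothelial-like cells; points are libraries of Nu-NB, invasive and angiogenic PDOXs, T101 is ringed, and bars are group means. For *H2-T23* the invasive PDOXs (268 to 778 CPM) lie above the angiogenic PDOXs (99.5 to 122 CPM), while for *H2-D1* T192 at 1996 CPM lies within the angiogenic range.

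Endothelial-like cells came from 3 clusters, of which that led by *Cd93*, *Apln* and *Kdr*, genes of sprouting vessels, held 30.1 to 33.2% of the class in the angiogenic PDOXs, 4.10 to 8.27% in T101, T192 and T233, 14 of 140 cells in P8 and 0 cells in Nu-NB. In that cluster *H2-T23* was at 263 ± 254 CPM (SD, n = 3) in the invasive and 62.8 ± 6.80 CPM (SD, n = 3) in the angiogenic PDOXs. The 2 other clusters were led by *Cxcl12* and by *Gkn3*. Both had *Slco1a4* and *Ly6c1*, genes of the blood-brain barrier endothelium, among their leading genes. The *Gkn3*-led cluster held 55.4% of the class in P13 and 8.29 to 40.4% in the other untreated PDOXs. In these 2 clusters *H2-T23* was at 563 ± 276 (SD, n = 4) against 171 ± 39.2 CPM (SD, n = 3), and at 659 ± 186 (SD, n = 4) against 263 ± 28.7 CPM (SD, n = 3). In the *Apln*- and *Kdr*-led cluster T192 was at 57.7 CPM, inside the angiogenic range of 55.8 to 69.4 CPM. The invasive mean there without T101 (547 CPM from 21 cells) was 121 CPM (n = 2). In the other 2 the invasive means without T101 were 453 and 636 CPM. *H2-Q6* had invasive means of 97.9, 105 and 85.8 CPM and angiogenic means of 20.6, 4.96 and 34.5 CPM in the same order, with invasive means of 74.8, 59.4 and 76.5 CPM without T101. Interferon-stimulated genes summed to 6973 to 15142 CPM in the invasive and 5054 to 5675 CPM in the angiogenic PDOXs, and to 7261 CPM in Nu-NB. Summed endothelial markers of the class were 16077 to 18538 CPM in the invasive and 11035 to 11641 CPM in the angiogenic PDOXs, and their part in the difference was not tested. Summed myeloid markers in endothelial-like cells were 6509 CPM in T233 and 525 to 1799 CPM in the other untreated PDOXs, and their part in the levels of T233 was not tested. Around the 10 genes, edgeR called 0 of 8 genes of peptide loading and trimming (median log2FC 0.25, beside -0.01 over all genes), 0 of 4 other genes of the immunoproteasome and its activator (median -0.45) and 1 of 24 interferon-stimulated genes (median -0.80). It also called 0 of 3 other heavy chains (median -1.76), 0 of 3 MHC class II genes (median -2.03) and 0 of 10 regulators (median -0.21). The fitted log2FC was -0.76 for *Tapbp*, -0.37 for the third immunoproteasome subunit *Psmb10* and -2.39 for *Gbp5*, and it was -0.17, 0.03 and -0.19 for the constitutive subunits *Psmb5*, *Psmb6* and *Psmb7*.

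The other classes, which the choice of genes did not use, gave no called difference. In myeloid-like cells edgeR called 0 of 10 genes and 0% of all genes at FDR ≤ 0.05, with 3 of the 10 at an unadjusted p under 0.05 (7.24% of all genes) and 0 called by DESeq2. The 3 were *H2-Q4* (log2FC -1.84, SE 0.68, FDR = 0.549, edgeR), *Tap1* (-1.45, FDR = 0.654, edgeR) and *Tap2* (-1.29, FDR = 0.488, edgeR). The median over the 10 genes was -0.41, beside -0.02 over all genes. *H2-T23* was at 219, 857, 227 and 269 CPM in the invasive and 408, 203 and 173 CPM in the angiogenic PDOXs, so that the groups overlapped. *H2-Q6* overlapped as well, with 13.3 to 120 CPM and 21.4 to 49.8 CPM. The groups did not overlap in *H2-Q4* (34.7 to 252 CPM in the invasive, 10.7 to 27.1 CPM in the angiogenic PDOXs) or *Tap2* (32.7 to 88.2 and 19.2 to 32.0 CPM). The share of all genes without overlap was not computed in this class. On simulated data of this comparison edgeR recovered 76.1% of genes changed 4-fold and 19.4% of genes changed 2-fold.

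In astrocyte-like cells, with T16 and P13 as the only angiogenic libraries, edgeR and DESeq2 called 0 of 6 genes (0% of all genes by edgeR), and 5 had an unadjusted p under 0.05 (3.77% of all genes). The fitted log2FC was between -1.38 and -2.33 in all 6, with *H2-D1* at -1.75 (SE 0.62, FDR = 0.905, edgeR) and *Tap2* at -2.33 (SE 0.83, FDR = 0.905, edgeR). Without P8, 5 of the genes passed (2.64% of all genes), and without T101 *H2-D1* was at -0.996 (FDR = 0.999, edgeR). Summed myeloid markers were 771, 2130, 5989 and 3831 CPM in the invasive and 1036 and 1341 CPM in the angiogenic libraries, and their part in this difference was not tested. In mural-like cells 0 of 3 genes were called by edgeR or DESeq2 (2.57% of all genes by edgeR) and in OPC-like cells 0 of 3 (0.173%), and 0 had an unadjusted p under 0.05 in either class (20.4% and 3.29% of all genes).

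The ratio of *Psmb8* to its constitutive counterpart *Psmb5*, compared between libraries only, was 5.86 to 21.2 in the myeloid-like cells of the untreated PDOXs and 4.09 in Nu-NB. In endothelial-like cells it was 40 to 4 UMIs in P8, 8.18, 1.97 and 3.25 in T101, T192 and T233, and 2.06, 1.38 and 2.53 in P3, T16 and P13. In astrocyte-like cells Nu-NB had only 2 UMIs of *Psmb8*, beside 26 of *Psmb5*, and among the untreated PDOXs P8, T192 and P13 had ratios of 0.36, 1.2 and 0.667. T16 had 3 UMIs of *Psmb8* beside 17 of *Psmb5*, T233 had 1 beside 4 and T101 had 13 beside 2. *Psmb9* to *Psmb6* was 0.441 in the myeloid-like cells of Nu-NB, 0.769 in those of T101 and 0.295 to 0.397 in those of the other 6 untreated PDOXs. *Psmb10* to *Psmb7* was at 1.0 to 4.0 in the myeloid-like cells of the untreated PDOXs and 5.71 in Nu-NB, from 40 and 7 UMIs. The ratios of T101 and of Nu-NB rest on as few as 6 and 11 UMIs of *Psmb5* in myeloid-like cells.

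TMZ was compared in 1 P3TMZ and 1 P3 library, without a test, and ratios of CPM have 95% exact intervals that cover counting error only. In endothelial-like cells the ratio was 2.08 (1.82 to 2.40) for *H2-D1*, from 479 and 365 UMIs, 2.24 (1.25 to 4.06) for *H2-T23* and 3.97 (1.15 to 17.3) for *H2-Q6*. *Psmb9* was at 2.16 (1.02 to 4.65) and *B2m* at 1.22 (1.09 to 1.37). These 5 intervals lay above 1 and 0 of 10 below. Of 6352 genes with at least 8 UMIs over both libraries, the fewest for any of the 10, 5.82% lay above and 8.08% below, and intervals narrow with more UMIs. With TMM scaling the interval of *B2m* (0.996 to 1.26) and that of *Psmb9* (0.940 to 4.26) reached 1, and 4.23% of the 6352 genes lay above 1 and 10.3% below. *H2-K1* was at 1.13 (0.885 to 1.45). In P3TMZ *H2-T23* was at 223 CPM and *H2-Q6* at 71.8 CPM, above the 3 untreated angiogenic PDOXs. Summed endothelial markers of the class were 18060 CPM in P3TMZ and 11641 CPM in P3, and the *Apln*- and *Kdr*-led cluster held 21.4% of the class in P3TMZ and 30.1% in P3. The part of either in the ratios was not tested.

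In myeloid-like cells the genes went both ways, with 2 of 10 intervals above 1 and 3 below, beside 7.36% and 11.7% of 4834 genes with at least 28 UMIs. With TMM scaling 12.7% of the 4834 genes lay above 1 and 7.63% below, and the interval of *Tap2* (1.08 to 7.60) also lay above 1. *H2-D1* was at 1.46 (1.35 to 1.57) and *H2-Q4* at 2.19 (1.01 to 5.40, but 0.797 to 3.04 with classes set cell by cell), while *B2m* was at 0.791 (0.757 to 0.826), *H2-K1* at 0.814 (0.740 to 0.896) and *H2-T23* at 0.669 (0.531 to 0.846). *H2-T23* and *B2m* thus had intervals above 1 in endothelial-like and below 1 in myeloid-like cells, and with TMM scaling this held for *H2-T23* but not for *B2m*. The *P2ry12*-led cluster held 36.3% of myeloid-like cells in P3TMZ and 8.39% in P3. In mural-like cells, with 16 and 19 cells, every interval included 1, but that of *H2-D1* was 1.01 to 11.8 with classes set cell by cell.

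**Figure D5:**
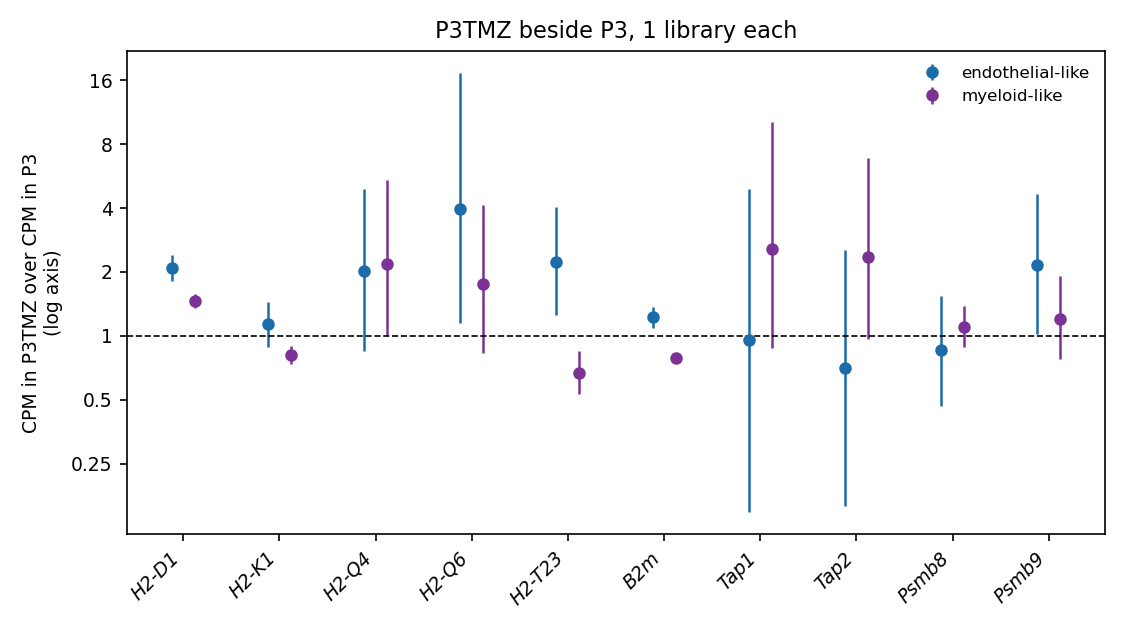
Ratio of CPM in P3TMZ to CPM in P3 for the 10 genes in endothelial-like and myeloid-like cells, on a logarithmic axis, with 95% exact intervals for counting error; the line marks a ratio of 1. *H2-D1* lies above 1 in both classes (2.08 and 1.46), and *B2m* lies at 1.22 in endothelial-like and 0.791 in myeloid-like cells.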

How the data were processed

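The authors separated human from mouse reads by mapping and deposited, for the mouse cells of each library, whole-number counts of UMIs per gene and barcode without normalization. The submitters' processing notes name STAR, bcl2fastq 2.0 and GRCm38 (mm10). The annotation release is not given in the sources used here.

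A cell was kept from 200 detected genes upward and up to a mitochondrial share of 30%, and the 5% with the highest scrublet score per library were left out as likely doublets. Per library, 722 to 2770 cells remained, with medians of 513.5 to 1272.5 UMIs per cell, so that low genes have wide intervals. Clustering ran in Python 3.11.15 (scanpy 1.11.5, leidenalg 0.10.2; resolution 1, seed 1, 20 neighbors and 30 principal components of 2000 highly variable genes), leaving out the 10 genes and the pathway lists, with no batch correction. This gave 23 clusters. A cluster was named when at least 50% of its cells, thinned to 500 UMIs, held 2 markers of a class, at least 3 of these markers were 2-fold above the other clusters and at least 1 was among its 30 leading genes, and it was called mixed when more than 1 class met this. This naming rule was set after clusters had been seen.

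UMIs were summed per class and library with at least 10 cells of the class and tested by edgeR 4.0.16 (quasi-likelihood, TMM, Benjamini-Hochberg adjustment, R 4.3.3) over all genes past the filter on low counts. Calls needed FDR ≤ 0.01 and an absolute log2FC of at least 1 for PDOXs against Nu-NB, and FDR ≤ 0.05 otherwise. Library was a block between classes, as classes of 1 library come from the same animal. A gene at 0 was bounded at 3 counts. Intervals and limits cover counting error only. Alternatives were DESeq2 1.42.0, its size factors, no filter, other cell and class rules, no block and leaving out each PDOX. Both tools were tested on simulated data.

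The 10 genes and all lists were chosen with earlier results of these data known. Named genes were the 10, up to 3 called genes per list with the largest change, *Psmb5*, *Psmb6*, *Psmb7*, *Psmb10*, *Tapbp* and *Nlrc5* where tested, a gene not reported here, and the 3 genes most alike to 7 of the 10. Likeness used genes with a mean of at least 50 CPM. Proteins, the promoter of *Tap2*, human tumor cells and libraries of other tumors were not analysed here.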

Additional observations from a re-analysis of the deposited data

Results flagged for a closer look

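In each class, the untreated PDOXs were examined for a library whose gap to its nearest neighbor was large against the range of the group (Dixon's 95% value). Chance gives about 1 in 20 groups for independent, normally distributed values, which these CPM were not shown to be. The share over all genes was not computed, so the count below is not read as particular to these genes. Of 50 groups of a gene in a class, 30 held such a library, and it was T101 in 28 of them, always as the highest. The cells of 1 library share its preparation, so these values are not independent of each other, and the cause was not tested.

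In myeloid-like cells T101 stood apart in *H2-D1* (6339 CPM), *H2-K1* (4442 CPM), *H2-Q4* (252 CPM), *H2-Q6* (120 CPM), *H2-T23* (857 CPM), *Tap1* (176 CPM), *Psmb8* (800.2 CPM) and *Psmb9* (189 CPM). In endothelial-like cells it did so only in *H2-Q6* (187 CPM). In mural-like cells, from 15 cells, it stood apart in *H2-D1* (3645 CPM), *H2-K1* (4374 CPM), *B2m* (13269 CPM), *Psmb8* (1312 CPM) and *Psmb9* (292 CPM). In OPC-like cells these were *H2-D1* (3479 CPM), *H2-K1* (2216 CPM), *H2-Q6* (143 CPM), *H2-T23* (524 CPM), *B2m* (5814 CPM), *Psmb8* (620 CPM) and *Psmb9* (238 CPM). In astrocyte-like cells they were *H2-D1* (1889 CPM), *H2-Q4* (206 CPM), *H2-Q6* (34.4 CPM), *H2-T23* (412 CPM), *Tap1* (206 CPM), *Psmb8* (447 CPM) and *Psmb9* (378 CPM).

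The 2 other libraries were P8 for *Tap2* in endothelial-like cells (197 CPM) and T192 for *H2-Q4* in mural-like cells (127 CPM).

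The ratio of P3TMZ to P3 lay on opposite sides of 1 in endothelial-like and myeloid-like cells, with intervals that did not include 1, for *H2-T23* (2.24 and 0.669) and for *B2m* (1.22 and 0.791). With TMM scaling the endothelial-like interval of *B2m* was 0.996 to 1.26 and included 1. The difference between the classes was not tested, as there was 1 library on each side.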

How the results depend on the processing

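Of 554 alternative values for 37 log2 fold changes of single genes, 533 kept their direction and, where tested, their side of the threshold. Of the rest, 15 no longer passed it, 6 newly passed it and 0 changed sign. Values of angiogenic against invasive PDOXs in endothelial-like cells carry no test. They counted as kept when they moved by less than the SD between libraries within the groups. Of 311 alternatives for 22 counts of genes, 283 stayed within 1.5 times the count reported. For PDOXs against Nu-NB, DESeq2 called 3 genes in place of 0 in myeloid-like cells, and no filter on low counts 3 in place of 0 in astrocyte-like cells (0 to 1 when each PDOX was left out, 1 without T192). Counts of genes higher in every PDOX than in Nu-NB were 2 to 4 in endothelial-like cells when each PDOX was left out (4 without T16), and in astrocyte-like cells 2 with classes set cell by cell and 3 with at least 500 detected genes, against 5. For angiogenic against invasive PDOXs, 0 to 5 genes were called in astrocyte-like cells when each PDOX was left out (5 without P8). The count lower in every angiogenic PDOX in endothelial-like cells was 3 with at least 500 detected genes, 9 with T192 and T233 summed, and 5 to 10 when each PDOX was left out.

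Without the library as a block, which pairs classes of the same tumor, edgeR called 0 genes between endothelial-like and myeloid-like, 1 between endothelial-like and mural-like, 5 between endothelial-like and OPC-like, 0 between mural-like and OPC-like and 0 between mural-like and astrocyte-like cells. The other 5 counts between classes stayed within 1.5 times. Between endothelial-like and mural-like cells the count was 7 with no filter, 1 with at least 500 detected genes and 2 to 5 with each PDOX left out (2 without P8). Between myeloid-like and mural-like cells it was 3 with at least 500 detected genes and 3 with at least 20 cells. Between mural-like and OPC-like cells it was 1 with classes set cell by cell, 1 with at least 20 cells, and 0 to 6 with each PDOX left out (1 without P8 or T16, 0 without P13, 6 without T101). Between mural-like and astrocyte-like cells it was 1 to 6 (1 without P13). The cause was not tested.

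DESeq2's size factors moved the median log2FC of all genes over the pairs of classes from -0.04 to 0.26 to -0.24 to 0.10, and the share of calls that were higher from 60.9 to 40.5% for endothelial-like, 60.8 to 45.4% for myeloid-like, 56.4 to 42.8% for mural-like and 49.2 to 31.1% for OPC-like against astrocyte-like cells. With TMM scaling the TMZ ratios in myeloid-like cells were 1.62 for *H2-D1*, 0.903 for *H2-K1* and 0.878 for *B2m*. Depth limits the Nu-NB values of endothelial-like and mural-like cells, with 35 and 11 cells.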
